A study of Sus scrofa with 30 samples.

Results

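The let-7 and miR-98 family was measured in plasma of 3 irradiated minipigs through 9 rows of the deposited count table. Members were the rows whose name starts with ssc-let-7 and the row with the number 98 directly after ssc-miR-, which gave 9 of 411 ssc-miRNAs. They were ssc-let-7a, ssc-let-7c, ssc-let-7d-3p, ssc-let-7d-5p, ssc-let-7e, ssc-let-7f, ssc-let-7g, ssc-let-7i and ssc-miR-98. The rule uses row names only.

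Mature let-7 miRNAs guide the silencing complex to mRNAs that pair with their seed, the stretch of bases 2 to 8 counted from the 5′ end. The family is known for high levels in differentiated tissue and for repression of growth genes. The RNA-binding protein LIN28 blocks the maturation of several let-7 precursors, and plasma carries the mature forms in vesicles, lipoproteins and protein complexes.

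The seeds below show what ties the family together and how near miR-202-3p, which was measured beside it, lies to it. Both were listed by the study, the capitals mark the whole seed, and G8U names the base of let-7a-5p, its position from the 5′ end and the base of miR-202-3p.
let-7a-5p: GAGGUAG
miR-202-3p: GAGGUAU
The 5p members and miR-98 share the let-7 seed, whereas let-7d-3p comes from the opposite arm of the let-7d precursor and has another. The members otherwise differ from each other by few bases, so that reads with a mismatch can be counted under a neighbour. The mismatches that the counting allowed were not given in the sources used here, and the split between near-identical members is therefore uncertain.

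The animals were male Göttingen minipigs (Sus scrofa), 4 months old, and all 3 received a total body irradiation (TBI) of 2.2 Gy from a cobalt source. Blood was drawn 7 days (C7) and 1 day (C1) before TBI, 6 h after it (0d), and then on 7 further days, each named by its number of days after TBI. The Early phase joins 0d with 1d, 3d and 7d, while Mid joins 10d with 14d. The single days 17d and 20d make up Late and LR. The study set these phases after a principal component plot of the same libraries, so that differences between phases are not independent of how the phases were drawn. Each animal was its own pre-TBI control, no unirradiated animal was sampled alongside, all were given subcutaneous dextrose and, at low neutrophil counts, antibiotics, and none survived. The group is limited as a model by its 3 animals, sampled repeatedly, by the treatment that all of them shared, and by the loss of minipig 3 from the counts after 1d.

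Libraries are the unit of every comparison. The table held 30 libraries, of which the 6 from minipig 3 at 3d and later had totals of 0 to 17 counts and no count of any member, so they were left out. The 24 libraries used held 24341 to 550316 counts, with a median of 240612. Depth differed between phases: pre-TBI libraries held 24341 to 423325 counts (n = 6), Early 172339 to 524084 (n = 10), Mid 35762 to 103083 (n = 4), Late 29159 and 63441, and LR 401408 and 550316. After 1d every value therefore comes from minipigs 1 and 2, and each of Late and LR is 1 library from each. Of 10 rows known from red cells, platelets, leukocytes and liver, none was at 0 in any library.

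Levels are given as log2 CPM, the log2 of a row's counts scaled to an equal library total, after TMM scaling sets each library against the others. A level is thus a share of the ssc-miRNAs counted in that library, so a rise of 1 miRNA and a fall of the rest cannot be told apart, nor can more releasing cells and more release per cell. Fold changes and p come from edgeR's quasi-likelihood test over all 411 rows, with Benjamini-Hochberg adjustment over the same rows. A call at unadjusted p means p under 0.05 before the adjustment, and the background share is the percentage of all 411 rows that the same rule calls.

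The family was a small part of the plasma profile before TBI. It took 0.304% to 0.803% of the counts in the 6 pre-TBI libraries, with a mean of 0.596% ± 0.183 (SD, n = 6). By the mean share of counts over these 6 libraries, let-7d-3p ranked 106 of 411, let-7c 154, let-7g 196, let-7a 216 and let-7f 233, with let-7d-5p between let-7d-3p and let-7c. The remaining members were scarce, with let-7e at rank 373, let-7i at 388 and miR-98 at 402.

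In pre-TBI plasma let-7d-3p stood first at a level of 10.57 ± 0.61 (SD, n = 6; log2 CPM, as in the rest of this paragraph). It was above let-7c, at 9.83 ± 0.54, in 6 of 6 pre-TBI libraries and in 22 of 24 over all times. Let-7c and let-7d-5p (9.80 ± 1.20) differed by 0.03 on average, less than the 0.83 SD of that difference. Let-7g (9.05 ± 0.85), let-7a (8.95 ± 0.65) and let-7f (8.90 ± 0.42) did not separate from each other beyond their spread either. Let-7f lay above let-7e, at 7.12 ± 0.44, in 6 of 6 libraries, a step of 1.79 ± 0.70. The last 3 were let-7e, let-7i (6.80 ± 0.54) and miR-98 (6.30 ± 0.57), and let-7e was above let-7i in 3 of 6 libraries only. CPM carries no length term, but mature miRNAs are of nearly equal length.

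**Figure D1:**
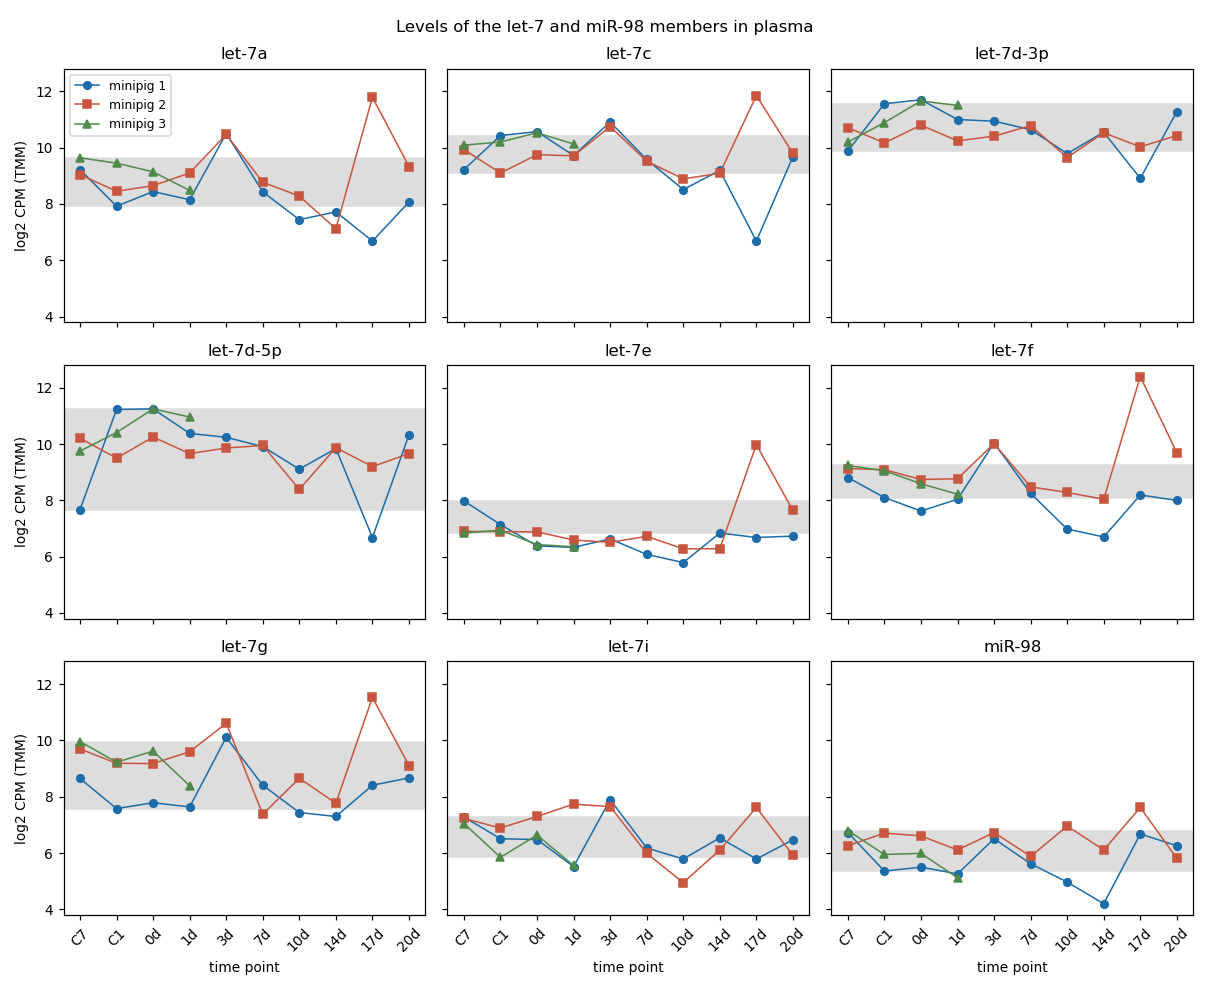
Level of each member (log2 CPM, TMM-scaled) by time point, with 1 line per minipig (blue circles 1, red squares 2, green triangles 3) and the pre-TBI range of 6 libraries in grey. Let-7a, let-7c, let-7f, let-7g and let-7i lie above the grey band at 3d in both minipigs, whereas at 17d minipigs 1 and 2 part by 5.11 for ssc-let-7a (11.79 against 6.68).

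No member passed the test between the 2 baseline days. C1 against C7 gave 0 of 9 members at unadjusted p in edgeR's quasi-likelihood test, where the background share was 0.73%. The fitted differences ran from -0.75 for let-7i to 0.94 for let-7d-5p (log2), and adjusted p was 0.997 for every member. Minipig 1 at C7 was the shallowest library used, and let-7d-5p had 4 counts there against 287 in the same animal at C1.

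In the Early phase as a whole, 0 of 9 members were called at unadjusted p, against a background share of 18.7%. With adjustment 0% of rows were called. The median log2 fold change over the members was 0.15, beside 0.02 over all rows, and 5 members were above 0 and 4 below. These medians hide opposite courses within the phase, which the time points show.

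Let-7e, which in the genome lies with miR-99b and miR-125a, was the member nearest to a call in the Early phase. Its Early levels ran from 6.08 to 6.88 with a median of 6.47 (log2 CPM, n = 10), and its pre-TBI levels from 6.84 to 7.98 with a median of 6.92. The 2 ranges overlap, between 6.84 and 6.88. Over all 10 Early libraries, 0 of 9 members were below every pre-TBI library, as 1 of 411 rows was. The fitted log2 fold change of let-7e was -0.56 ± 0.28 (SE), with adjusted p = 0.269 by edgeR's quasi-likelihood test. It was called at unadjusted p with only the 2 groups in the fit (-0.55), with another TMM reference (-0.64) and with thinned counts (-1.27). It was also called without minipig 1 (-0.40) or minipig 2 (-0.84), and without either 17d library (-0.66 and -0.55). No call came under RLE (-0.57), library size only (-0.66), DESeq2 (-0.54) or minipig as a replicate block (-0.57). Nor was let-7e called with no filter or another filter on low counts (-0.56 each), or with C7 only (-0.73) or C1 only (-0.50) as baseline. The same held without minipig 3 (-0.63) and without C7 of minipig 1 (-0.56). By time point, let-7e was below every pre-TBI library at 1d, 3d, 7d and 10d. At 10d it had only 2 counts in minipig 1 and 3 in minipig 2. Of all rows, 3.16% lay below every pre-TBI library at 1d and 4.38% did at 3d. The share was 5.35% for 7d and 6.08% for 10d.

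At 3d, 5 members lay above their pre-TBI range in both minipigs. Let-7a, the best-studied member, stood at 10.50 in minipig 1 and 10.47 in minipig 2 (log2 CPM), and at 7.92 to 9.64 with a median of 9.13 before TBI. Let-7f stood at 10.04 and 10.02, against 8.10 to 9.24 before TBI. Let-7g stood at 10.11 and 10.61, against 7.58 to 9.96. Both 3d libraries were thus above all 6 pre-TBI libraries for each of the 3, with no overlap.

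Let-7c (10.91 and 10.75, against 9.10 to 10.43) and let-7i (7.90 and 7.65, against 5.85 to 7.28) did the same. In all, 5 of 9 members were above every pre-TBI library at 3d, where the background share was 7.06%. Against the same animal's mean of C7 and C1, let-7a was higher by 1.94 in minipig 1 and 1.73 in minipig 2, and let-7g by 2.0 and 1.16 (log2). The let-7d arms differed less from the same animal's baseline, with changes of 0.22 and -0.03 for let-7d-3p and 0.78 and 0.01 for let-7d-5p. MiR-98, at 6.51 and 6.73, lay inside its pre-TBI range of 5.36 to 6.80.

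The model called 1 of these members. Let-7a, called at unadjusted p only, was at 1.44 ± 0.62 (SE, log2), a 2.71-fold change, with adjusted p = 0.476 by edgeR's quasi-likelihood test. The background share at 3d was 8.52% at unadjusted p. Let-7g (1.14 ± 0.63), let-7f (1.08 ± 0.61), let-7i (1.02 ± 0.51) and let-7c (0.92 ± 0.58) were not called, with adjusted p from 0.583 to 0.808. The median over the 9 members was 0.92, beside -0.07 over all rows.

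Of the 6 rows known from platelets and leukocytes, 2 were called at 3d. The 6 rows of that list (miR-126-3p, miR-126-5p, miR-142-3p, miR-142-5p, miR-150 and miR-191) summed to 4.33% and 7.77% of counts at 3d, and to 0.982% to 2.32% before TBI. Of the 6, miR-191 (2.08, adjusted p = 0.0249) and miR-126-5p (1.66, adjusted p = 0.0282) rose at 3d by edgeR's quasi-likelihood test. Of all rows, 5 of 411 passed the adjustment at 3d. MiR-150 was at -0.01, miR-142-3p at -0.03 and miR-126-3p at -0.13, while miR-142-5p, at 0.72, was not called. The 3 red cell rows (miR-144, miR-451 and miR-486) summed to 3.32% and 5.79%, within the pre-TBI range of 1.02% to 9.02%. Their part in the let-7 levels was not tested.

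**Figure D2:**
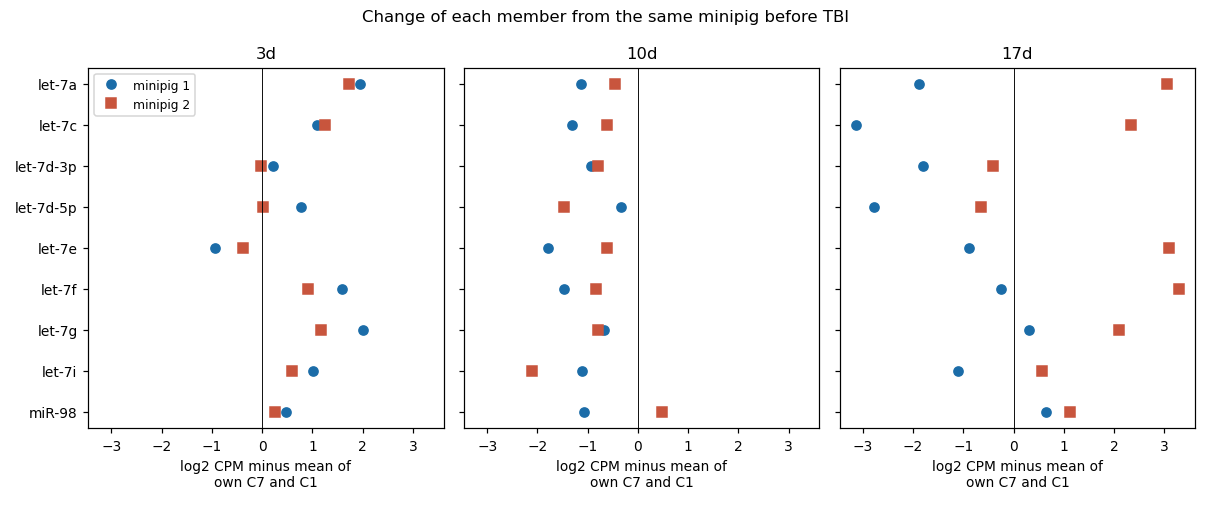
Log2 CPM of each member at 3d, 10d and 17d minus the mean of the same animal's C7 and C1 libraries, for minipig 1 (blue circles) and minipig 2 (red squares). At 3d 8 of 9 members in minipig 1 and 7 of 9 in minipig 2 lie above 0, at 10d 0 and 1 of 9, and at 17d 2 and 7 of 9.

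In the Mid phase all 9 members had negative fold changes, and 3 were called at unadjusted p. Let-7a ran from 7.12 to 8.28 (log2 CPM, 4 Mid libraries), against 7.92 to 9.64 before TBI. Let-7f ran from 6.70 to 8.28, against 8.10 to 9.24, and let-7g from 7.30 to 8.66, against 7.58 to 9.96. The highest Mid library for each was minipig 2 at 10d, and it lay inside the pre-TBI range. Over all 4 Mid libraries, 0 of 9 members were below every pre-TBI library, as 5 of 411 rows were.

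The 3 were let-7a at -1.42 ± 0.67 (SE, log2), let-7g at -1.41 ± 0.67 and let-7f at -1.35 ± 0.63. Their adjusted p was 0.808 in edgeR's quasi-likelihood test, and 0% of rows passed the adjustment. The 3 of 9 members called at unadjusted p stand beside a background share of 5.35%. The other members ran from -0.98 for let-7c (adjusted p = 0.818) to -0.50 for let-7d-3p (adjusted p = 0.885). The median over the members was -0.82, and over all rows 0.05. None of the 9 signs turned under any alternative fit. The calls were less firm, with 0 members called under RLE, library size or another TMM reference, and 1 with minipig as a replicate block. Minipig 3 has no Mid library and enters this comparison through the pre-TBI libraries only. Without it 0 members were called, with let-7a at -1.01, let-7g at -1.12 and let-7f at -1.20.

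Within the phase, 4 members (let-7c, let-7d-3p, let-7e and let-7i) were below every pre-TBI library at 10d, where the background share was 6.08%. For 2 of them this rests on very few reads. At 10d let-7e had 2 counts in minipig 1 and 3 in minipig 2, and let-7i had 2 and 1. Let-7c had 15 and 20, and let-7d-3p 37 and 34. Let-7a and let-7f were below every pre-TBI library at 14d, at a background of 6.81%. By time point, 10d gave 0 members at unadjusted p (background 7.3%), and 14d gave 2 (background 9%), let-7g at -1.74 ± 0.78 and let-7a at -1.66 ± 0.77. The family took 0.167% and 0.336% of counts at 10d and 0.411% and 0.412% at 14d, against a pre-TBI low of 0.304%. Mid libraries were shallow, with 7 to 19 counts of let-7a and 5 to 29 of let-7f in each of the 4.

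Of the 9 blood cell rows, 2 were called lower in the Mid phase at unadjusted p, miR-142-5p (-1.73 ± 0.55) and miR-451 (-2.42 ± 0.89; SE, log2), beside the background share of 5.35%. MiR-126-3p (0.52) and miR-150 (0.16) were on the other side of 0. The platelet and leukocyte rows summed to 0.548% to 1.5% of counts, and at 10d to 0.548% and 0.610%, below the lowest pre-TBI library. The red cell rows summed to 0.909% to 2.93%, which overlaps their pre-TBI range. MiR-451 minus miR-23a, an index of haemolysis on the log2 scale, ran from -1.31 to 0.08, beside -1.19 to 3.42 before TBI. Their part in the let-7 levels was not tested.

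**Figure D3:**
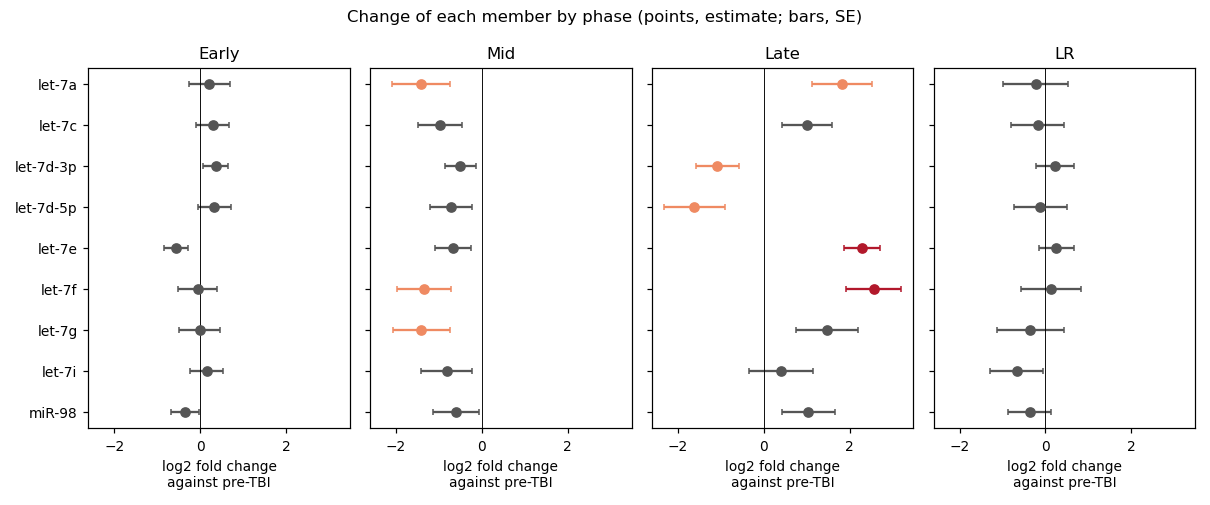
Fitted log2 fold change of each member against pre-TBI in the 4 phases (points, estimate; bars, SE), in dark red where adjusted p is under 0.05, in orange where unadjusted p is under 0.05, and in grey otherwise. At Mid all 9 points lie left of 0, and at Late let-7e (2.29) and let-7f (2.56) are dark red while let-7d-3p (-1.08) and let-7d-5p (-1.62) lie left of 0.

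At Late the 2 libraries went apart, and the fitted values rest on minipig 2. The family took 1.86% of counts in minipig 2 at 17d (95% Clopper-Pearson interval 1.76% to 1.97%), the highest share of all 24 libraries. It took 0.117% in minipig 1 (0.0808% to 0.163%), the lowest share. These intervals cover counting error only.

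The gap between the libraries was widest for ssc-let-7c (5.17, log2) and ssc-let-7a (5.11) and narrowest for ssc-miR-98 (0.93). Let-7f had 344 counts of 63441 in minipig 2 and 6 of 29159 in minipig 1. Let-7a had 225 and 2 counts, let-7c 234 and 2, let-7g 188 and 7, and let-7e 64 and 2. In log2 CPM, let-7f stood at 12.40 and 8.19, let-7a at 11.79 and 6.68, and let-7e at 9.98 and 6.68. The libraries lay on either side of the pre-TBI range for let-7a, let-7c, let-7e and let-7i, so no member separated from pre-TBI in both.

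The model called 5 of 9 members at unadjusted p, where the background share was 22.6%. Let-7e rose by 2.29 ± 0.41 (SE, log2; adjusted p = 0.00102) and let-7f by 2.56 ± 0.65 (adjusted p = 0.0215) in edgeR's quasi-likelihood test, and the adjusted background share was 4.38%. Let-7a, at 1.83 ± 0.70, was called at unadjusted p only (adjusted p = 0.134). Let-7g was at 1.48 ± 0.72 and not called (adjusted p = 0.219). The median over the members was 1.04, beside 0.08 over all rows.

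Without minipig 2 every one of these turned to the other side of 0. Let-7e was then at -0.75, let-7f at -1.01, let-7a at -2.92 and let-7g at -1.07, and without minipig 1 the values were 3.13, 3.24, 2.53 and 1.93. Let-7c was at 1.01 ± 0.59 in the main fit, at -3.78 without minipig 2 and at 1.92 without minipig 1. Its mean log2 CPM was lower at Late (9.26) than before TBI (9.83), opposite in sign to the fitted change. Let-7i, at 0.40 ± 0.74, likewise had means of 6.70 and 6.80. With minipig as a replicate block let-7e kept its adjusted call (2.16, adjusted p = 0.00402) and let-7f lost it (2.18, adjusted p = 0.0654).

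The fitted changes of the 2 let-7d arms were negative at Late, and those of the other 7 members positive. At 17d, 2 of 9 members in minipig 1 and 7 of 9 in minipig 2 were above the same animal's mean of C7 and C1. Both arms were below it in each animal, so that in minipig 1 they fell together with most members. Let-7d-3p stood at 8.91 in minipig 1 and 10.03 in minipig 2, against 9.88 to 11.56 before TBI. Let-7d-5p stood at 6.68 and 9.20, against 7.67 to 11.23. Minipig 1 was below the pre-TBI range for both arms and minipig 2 inside it. The fitted changes were -1.08 ± 0.50 (adjusted p = 0.192) and -1.62 ± 0.71 (adjusted p = 0.182) in edgeR's quasi-likelihood test, both called at unadjusted p only. Without minipig 1 at all they were -0.53 and -0.85, without minipig 2 -2.18 and -3.97, and neither passed unadjusted p under the replicate block (-0.89 and -1.35).

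At Late the platelet and leukocyte rows summed to 0.230% and 0.741% of counts, below their pre-TBI low of 0.982%. The red cell rows summed to 0.604% in minipig 1 and 1.023% in minipig 2, beside a pre-TBI low of 1.016%. MiR-191 (-2.11), 1 of the 6 platelet and leukocyte rows, and miR-451 (-2.74), 1 of the 3 red cell rows, were called lower at unadjusted p. The background share was 22.6%. Among the platelet and leukocyte rows 1 was above 0, miR-150 (0.58), and 5 were below, with miR-142-3p at -0.05 and miR-126-3p at -0.12. Their part in the let-7 levels was not tested. The 17d time point alone gave 6 members at unadjusted p (background 23.8%) and 2 adjusted (background 4.87%), from the same 2 libraries as the Late phase.

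At LR the family's share lay inside its pre-TBI range. It took 0.478% and 0.700% of counts, and let-7a stood at 8.07 and 9.33, let-7c at 9.68 and 9.80 and let-7d-3p at 11.28 and 10.43 (log2 CPM). In edgeR's quasi-likelihood test 0 of 9 members were called at unadjusted p (background 5.6%), and 0% of rows passed adjustment. The fitted changes ran from -0.67 ± 0.62 for let-7i to 0.25 ± 0.41 for let-7e. At 20d let-7f was below the pre-TBI range of 8.10 to 9.24 in 1 library (8.0) and above it in the other (9.69). Let-7e was below its range in 1 library and inside it in the other. Of the blood cell rows, miR-126-5p was called higher at unadjusted p, both at LR (1.75, background 5.6%) and at Early (0.83, background 18.7%). Other rows of its list went the other way at LR. Of the 6 platelet and leukocyte rows 3 were above 0 and 3 below, with miR-191 at -1.28 and miR-142-5p at -1.17. All 3 red cell rows were below 0 at LR, and none was called. The liver row, miR-122, was called lower at LR (-1.39) and at Early (-0.79).

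Phases were also compared with each other. LR against Late called 4 members at unadjusted p, against a background of 32.1%, and none adjusted (background 0.73%). Let-7f (-2.44 ± 0.90), let-7a (-2.06 ± 0.95) and let-7e (-2.04 ± 0.52) were lower at LR and let-7d-3p (1.31 ± 0.57) was higher. The 3 lower values rest on minipig 2 at 17d, and let-7a was at 2.24, let-7e at 0.62 and let-7f at 0.91 without that library. Let-7d-3p lost its call without minipig 1 (0.46) and without the 17d library of minipig 1 (0.72).

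Mid against Early called 6 of 9 members, all lower, at unadjusted p (background 23.1%), and none adjusted (background 0%). They were let-7a (-1.62 ± 0.63), let-7g (-1.41 ± 0.63), let-7f (-1.28 ± 0.59), let-7c (-1.27 ± 0.49), let-7d-5p (-1.05 ± 0.48) and let-7d-3p (-0.85 ± 0.34). Late against Mid called 6 members at unadjusted p (background 17.5%) and 4 adjusted (background 4.62%), which were let-7f, let-7a, let-7e and let-7g. Late against Early called 7 at unadjusted p (background 46.5%) and 4 adjusted (background 31.9%), with let-7e and let-7f higher and both let-7d arms lower. The let-7d arms lost the adjusted call with minipig as a replicate block (-1.25, adjusted p = 0.054, and -1.68, adjusted p = 0.0705) and without minipig 1 (-0.95 and -1.23). The last 3 comparisons share the Early, Mid or Late libraries.

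The other time points gave no member at unadjusted p. The background share was 8.52% at 0d and 12.2% at 1d. It came to 8.27% for 7d and 7.06% for 20d. Let-7d-3p was the nearest at 0d, at 0.75 ± 0.36 (SE, log2; adjusted p = 0.468 by edgeR's quasi-likelihood test).

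**Figure D4:**
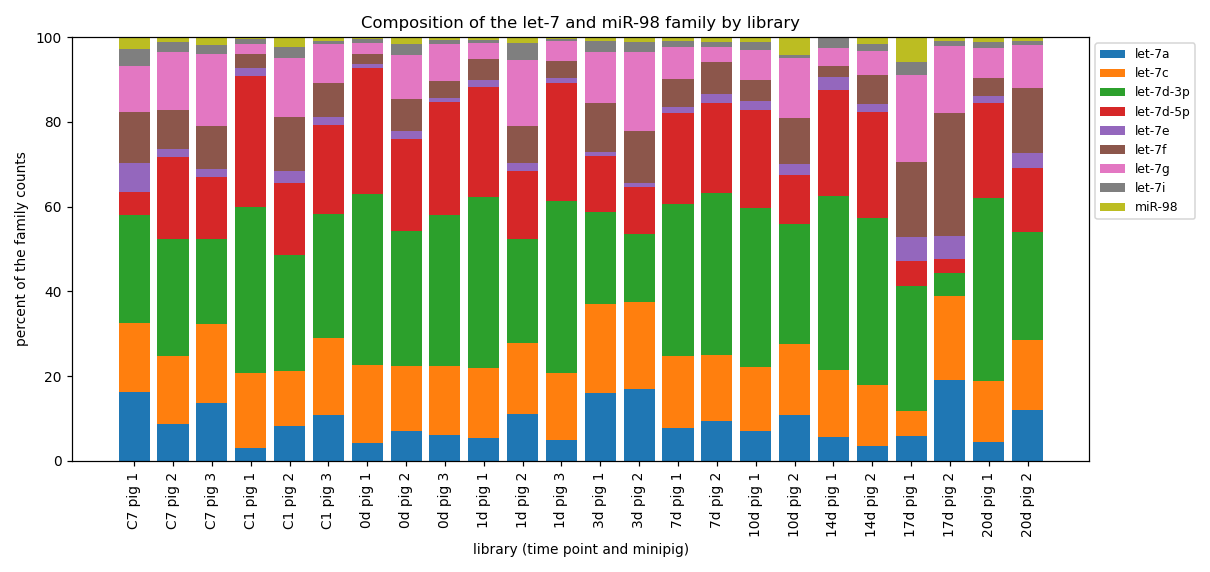
Share of each member in the family's counts in the 24 libraries, as stacked bars that sum to 100 percent, in order of time point and minipig. The green and red blocks, both let-7d arms, make up 70.1% of the family in minipig 1 at C1 and 8.71% in minipig 2 at 17d.

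The make-up of the family also varied between libraries. The let-7d arms together held 31.1% to 70.1% of the family's counts before TBI, with a median of 45.9%. They held 27.2% to 70.1% in the Early phase and 40.0% to 66.1% in the Mid phase. Let-7a, let-7f and let-7g together held 8.88% to 40.8% before TBI, 39.6% and 47.8% at 3d, and 44.1% and 64.0% at 17d. The let-7d share was thus low where the let-7a, let-7f and let-7g share was high, as shares of 1 sum must be.

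Over the 24 libraries the members fell into 2 main patterns. Let-7a, let-7f and let-7g went together, with Spearman's rho of 0.89 (let-7a and let-7f), 0.85 (let-7f and let-7g) and 0.79 (let-7a and let-7g). Let-7i and miR-98 followed let-7g at 0.63 and 0.70. The let-7d arms went with each other at 0.98 and with let-7a at 0.01 and 0.03 only, and miR-98 had -0.52 and -0.48 with them.

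Let-7c stood between, at 0.70 with let-7a and 0.55 and 0.58 with the arms of let-7d. Let-7e had no rho over 0.50 with any member. These values describe 24 libraries of 3 animals that share their baseline, their depth and their time course. Without the 17d libraries (n = 22) let-7a and let-7f were at 0.89 and the let-7d arms at 0.98. With the library total, rho was 0.53 and 0.55 for the let-7d arms, 0.41 for let-7a, 0.29 for let-7f and -0.13 for miR-98. With the summed platelet and leukocyte rows it was 0.56 for let-7i, 0.52 for let-7a and 0.45 for let-7f. With the summed red cell rows it was 0.67 for let-7i, 0.53 for let-7g and -0.04 for both let-7d arms.

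The gap between the arms of let-7d varied less than that between let-7d-5p and let-7a. Let-7d-3p exceeded let-7d-5p in 24 of 24 libraries, by 0.33 to 2.23 with a median of 0.67 (log2). The 2 largest gaps were 2.20 in minipig 1 at C7 and 2.23 in the same animal at 17d, where let-7d-5p had 4 and 2 counts. Without those 2 libraries the gap ran from 0.33 to 1.26, with an SD of 0.21. It was 0.33 to 0.67 before TBI and 0.41 to 0.62 at 0d and 1d, and at 3d 0.70 in minipig 1 and 0.54 in minipig 2. From 7d onwards, in minipigs 1 and 2 only, it was 0.66 to 1.26, a difference noticed in these values and not tested. The 1.26, in minipig 2 at 10d, rests on 14 counts of let-7d-5p. The difference between let-7a and let-7d-5p ran from -3.32 to 2.59 over the same 22 libraries, with an SD of 1.36.

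**Figure D5:**
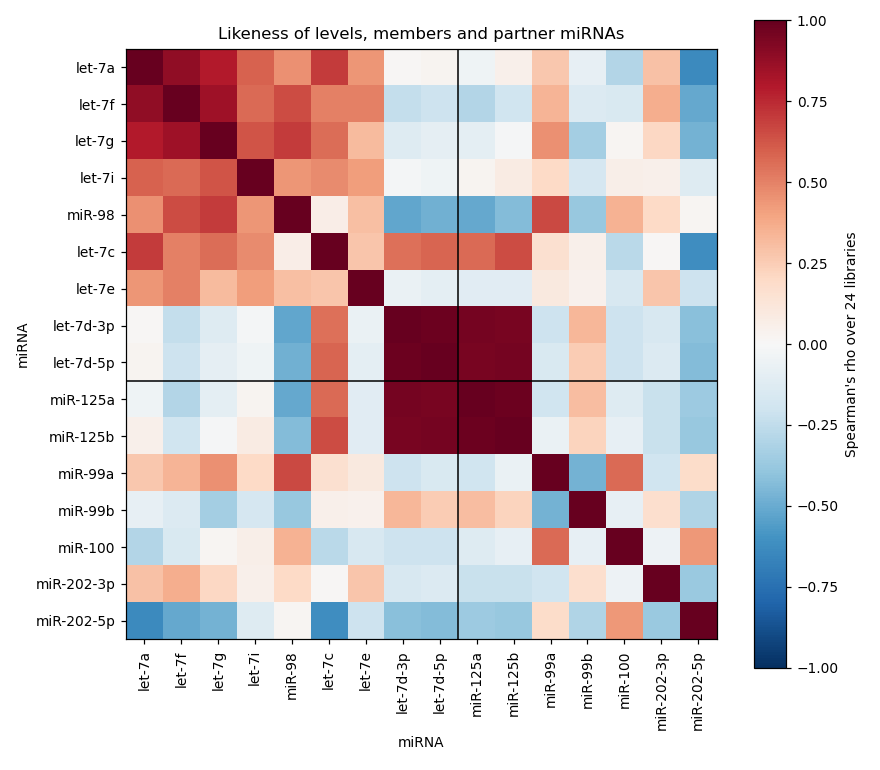
Spearman's rho of log2 CPM over 24 libraries between the 9 members (first 9 rows) and 7 partner miRNAs, from blue (-1) to red (1), with black lines between the sets. The let-7d arms form a dark red block with miR-125a and miR-125b (0.95 to 0.96), apart from the block of let-7a, let-7f and let-7g (0.79 to 0.89).

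Members with neighbouring genes did not always go together. In RefSeq's annotation of Sscrofa11.1, which is not the build of the files, 10 genes of the family were found. MIRLET7D lies beside MIRLET7A-2 and MIRLET7F-2, MIR98 beside MIRLET7F-1, MIRLET7C beside MIR99A, MIRLET7E beside MIR99B and MIR125A, and MIRLET7A-1 near MIR100 and MIR125B-1. A mature row sums the copies of its gene, so let-7a and let-7f each draw on 2. Let-7d-5p, which neighbours let-7a and let-7f, had rho of 0.03 and -0.21 with them. Let-7e had 0.04 with miR-99b and -0.11 with miR-125a, let-7c had 0.16 with miR-99a, and let-7f had 0.65 with miR-98.

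Likeness was also sought outside the family, among rows that are no members. Of the members only let-7d-3p had at least 10 counts in every library, as 170 of 411 rows did, and it was set against the other 169. Its rho with let-7d-5p (0.98) was above all of these. The 5 nearest were miR-484 (0.97), miR-9810-3p (0.96), miR-874, miR-9848-3p and miR-149 (0.93 each), and 3 of those 5 stayed among the nearest when only library size was scaled. Without the count minimum, miR-125a (0.96) followed miR-484. For the sparser members, chosen after the first result was seen, and again among rows outside the family, let-7a was nearest to miR-26a (0.91) and miR-181a (0.90), let-7f to miR-181a (0.93) and miR-26a (0.85), and let-7g to miR-30e-5p (0.86) and miR-30d (0.85). MiR-98 was nearest to miR-101 (0.87), let-7c to miR-181b (0.82), let-7i to miR-21 (0.75) and let-7e to miR-9807-5p (0.57). The n was 24 libraries in each case.

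The 7 partner rows are miR-99a, miR-99b, miR-100, miR-125a and miR-125b, which share precursors' neighbourhoods with let-7 genes, and the 2 arms of miR-202. Against pre-TBI, 1 of 7 was called at unadjusted p in the Early phase, where the background share was 18.7%. It was miR-202-5p at -1.85 ± 0.84 (adjusted p = 0.23 by edgeR's quasi-likelihood test). None passed at Mid (background 5.35%), Late (22.6%) or LR (5.6%). Late against Early called 4 of 7 at unadjusted p, where the background share was 46.5%, with miR-202-5p (3.77 ± 1.04) and miR-99a (0.98 ± 0.43) higher. The 2 Late libraries lay far apart for both, at 6.67 and 12.29 for miR-202-5p (Early median 7.51) and at 8.95 and 10.71 for miR-99a (Early median 8.91; log2 CPM). MiR-125a (-1.46 ± 0.58) and miR-125b (-1.60 ± 0.60) were lower, beside -1.44 ± 0.49 for let-7d-3p and -1.95 ± 0.70 for let-7d-5p in the same comparison. MiR-202-3p, with the seed nearest to that of let-7, passed in none of the phase comparisons, and its rho with let-7a was 0.29.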

How the data were processed

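The deposited file is a table of read counts, whole numbers per mature ssc-miRNA and library, made by the authors from single plasma libraries without pooling. Per the labels and methods, reads were demultiplexed with bcl2fastq2, trimmed with Cutadapt and aligned with Bowtie2 2.2.3.0 to ssc5, re-mapped to the ssc-miRNAs of miRBase and quantified with miRDeep2, and the study tested with edgeR. The study's methods filter out rows of low counts before its tests, and whether the 411 deposited rows had passed that filter is not given in the sources used here, nor are multimapping and mismatch settings. All 30 columns were mapped by title, and the 6 under 1000 counts were left out.

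The counts were tested with edgeR 4.0.16 (R 4.3.3), with TMM scaling, rows of at least 0.5 CPM in at least 3 libraries (all 411), 1 fit over the 5 phases, a second over time points, and quasi-likelihood tests. Levels are log2 CPM with a prior count of 2, which lifts values of 1 or 2 counts. DESeq2 1.42.0 was an alternative. Minipig numbers pair the libraries, because they are the same animals: deviations from phase means correlated by 0.169 within a minipig (78 pairs) and by -0.102 between minipigs (130 pairs). The main fit has no term for the animal and treats libraries as independent, which repeated draws of 1 animal are not. Its p therefore measures the spread between libraries, within and between animals together, and not the spread between animals. After 1d these libraries come from minipigs 1 and 2, set against a baseline of 3 animals. Only the alternative with minipig as a replicate block holds a term for the animal. No 2 of 276 library pairs were alike within sampling noise.

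All 9 members are named. Partner rows (miR-99, miR-100, miR-125 and miR-202) and rows of red cells (miR-144, miR-451 and miR-486), of platelets and leukocytes, and of liver (miR-122) were looked up by name. Partner rows that passed in a phase were named, up to 6, and the other lists were given by counts and summed levels. Single rows of those lists were named after their values were seen. The table used here had no row for miR-223. The members and lists were chosen with earlier results of these data known. Likeness took the 5 rows with the highest rho. Seeds came from the study's list, and no mature sequence was used here.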

Additional observations from a re-analysis of the deposited data

Results flagged for a closer look

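Among 27 groups of 4 to 10 libraries (9 members in pre-TBI, Early and Mid), 2 had a library far from the rest, and chance alone marks about 1 in 20 such groups. Let-7e stood at 7.98 (log2 CPM) in minipig 1 at C7, above the other pre-TBI libraries, on 5 counts in the shallowest library used. Let-7f stood at 8.10 in minipig 1 at C1, below the others, on 32 counts.

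Changes differed between phases by the edgeR test of the difference itself at adjusted p. Against Early, Late was higher in let-7e by 2.85 (log2, adjusted p = 9.28e-06) and in let-7f by 2.63 (adjusted p = 0.00311). It was lower in let-7d-3p, at -1.44 (adjusted p = 0.0304), and in let-7d-5p, at -1.95 (adjusted p = 0.0389). Against Mid, Late was higher in let-7f by 3.91 (adjusted p = 0.00349), in let-7a by 3.24 (0.0156), in let-7e by 2.97 (0.00139) and in let-7g by 2.90 (0.0383).

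None of the 6 higher values kept its call without minipig 2. Late against Early was then at -0.80 for let-7f and 0.09 for let-7e, and Late against Mid at 1.10 for let-7f, -1.30 for let-7a, -0.16 for let-7e and 0.76 for let-7g. Late holds 2 libraries of 29159 and 63441 counts, and animal, depth and time cannot be told apart there.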

How the results depend on the processing

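In all, 648 log2 fold changes were recomputed under alternatives other than leaving out a minipig or a single library. These alternatives include C7 only or C1 only as baseline and only the 2 groups compared, which use fewer libraries. Of the 648, 561 kept their direction and their side of unadjusted p of 0.05, 45 no longer passed, 15 newly passed and 27 changed sign. No sign turned at Mid. Library size alone moved the median of all rows by -0.29 at Late and -0.32 at 0d, and TMM with the deepest library as reference by -0.18 at Late. Depth limits the Mid and Late values most, at 29159 to 103083 counts a library, and thinning to 24341 leaves few counts of the scarce members. The alternatives without C7 of minipig 1 or without 1 library of 17d were chosen after seeing the data, as was the likeness of single members. Unless stated, the cause of a change was not tested.

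The full fit called 0 Early, 3 Mid and 5 Late members at unadjusted p, and 4 in LR against Late. At Early, 1 was called with TMM on the deepest library, with only the 2 groups compared and with thinned counts. At Mid, 0 were called under RLE, library size only and TMM on the deepest library, 1 under the replicate block, C7 only, C1 only and thinned counts, and 5 with only the 2 groups. At Late, 3 were called under the replicate block, and 2 with only the 2 groups or with C7 only. LR against Late gave 0 with only the 2 groups, which have fewer libraries to estimate the spread. The 2 members called at adjusted p at Late became 1 with library size only, under the replicate block and with C1 only, and 0 with only the 2 groups, C7 only and thinned counts. The 8 adjusted calls of Late against Mid and Early became 4 with only the 2 groups and with thinned counts. Over alternatives the adjusted p at Late ran from 0.000542 to 0.58 for ssc-let-7f (8 of 17 called) and from 2.24e-06 to 0.847 for ssc-let-7e (12 of 17).

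With minipigs or libraries left out, the members called at unadjusted p numbered 0 to 1 at Early, 0 to 5 at Mid, 3 to 5 at Late, 0 to 1 at LR, 3 to 6 for LR against Late and 0 to 3 for C1 against C7. Members called at adjusted p numbered 1 to 4 at Late and 3 to 9 for Late against Mid and Early, and pairs of member and time point called at unadjusted p 7 to 18, beside 9 in the full fit.

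Signs (log2 fold change against pre-TBI) turned with C7 only for let-7a (-0.14) and let-7i (-0.30) at Early, let-7i (-0.08) at Late, let-7d-5p (0.29) and let-7f (-0.01) at LR and let-7d-5p (0.46) at 3d. With C1 only they turned for let-7d-5p (-0.06), let-7f (0.07) and let-7g (0.40) at Early, let-7a (0.07), let-7d-3p (-0.06) and let-7g (0.05) at LR and let-7d-3p (-0.28) at 3d. With thinned counts they turned for let-7f (0.02) at Early, let-7i (-0.07) at Late, let-7d-3p (-0.13) and let-7e (-0.55) at LR, and let-7d-5p (0.10) and miR-98 (-0.95) at 3d. Under the replicate block they turned for let-7g (0.14) and let-7i (-0.01) at Early, let-7d-5p (0.001) and let-7f (-0.07) at LR and let-7d-5p (0.004) at 3d. DESeq2 gave 0.01 for let-7g at Early. Let-7d-3p at 3d was -0.0007 with library size only and -0.01 with only the 2 groups. None of these values passed the test in the full fit. Besides the calls named above and in the report, the replicate block gave LR against Late an adjusted call for let-7e (-2.0, adjusted p = 0.0486).

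With a minipig or library left out, fold changes that turned at Early ran from -0.11 to 0.68 for let-7a, -0.27 to 0.17 for let-7f, -0.25 to 0.31 for let-7g and -0.08 to 0.16 for let-7i. At Late they ran from -2.92 to 2.74 for let-7a, -3.78 to 1.95 for let-7c, -0.75 to 3.13 for let-7e, -1.01 to 3.46 for let-7f, -1.07 to 2.28 for let-7g and -1.27 to 0.84 for let-7i. At LR they ran from -1.34 to 0.19 for let-7a, -0.07 to 0.34 for let-7d-3p, -0.57 to 0.80 for let-7e and -1.08 to 0.57 for let-7f. At 3d they ran from -0.15 to 0.22 for let-7d-3p and -0.24 to 0.03 for let-7d-5p. LR against Late ran from -3.43 to 0.91 for let-7f, -3.08 to 2.24 for let-7a and -2.89 to 0.62 for let-7e. Late against Early ran from -0.80 to 3.59 for let-7f, -2.80 to 2.60 for let-7a and -0.85 to 2.35 for let-7g. Late against Mid ran from -2.64 to 2.95 for let-7c, -1.30 to 4.18 for let-7a and -0.16 to 3.85 for let-7e.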
